A study of Mus musculus with 5 samples.

Results

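The Rab genes encode small GTPases that direct membrane traffic between the organelles of a cell. The group described here holds the 55 autosomal protein-coding mouse genes whose symbol is Rab followed by a number and at most 1 letter, out of 20665 autosomal protein-coding genes annotated by RefSeq on the GRCm38.p6 assembly (mm10 coordinates). The rule uses the symbol alone and no measured value, although this gene group was picked with earlier results of these data known. For each gene, the peaks of NKX2-1 chromatin immunoprecipitation sequencing (ChIP-seq) whose summit lay inside the gene or within 10 kb of it were collected and merged where they overlapped, and genes were ranked by the highest mean pileup among the resulting regions. The pileup is the number of fragments stacked over the summit of a peak, in tags, as the authors deposited it.

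NKX2-1 is a homeodomain transcription factor of lung epithelium. The chromatin came from whole lungs of wild-type mice at P10, postnatal day 10, and was immunoprecipitated with 4 antibodies against NKX2-1, namely Abcam133737, Millipore07-601, Abcam76013 and Abcam133638. Each antibody gave 1 library, and 1 input library served all 4. Per the labels' protocol, the lungs were fixed with formalin and the chromatin of several tubes of nuclei was combined after sonication, so the 4 libraries may share 1 preparation. The labels give no other treatment or genotype, and how many animals went into each library was not given in the sources used here. There was therefore no replicate error for any value, no test between antibodies was made, and the values of the 4 libraries are set side by side.

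Filtered tags ranged from 43031331 with Millipore07-601 to 46547989 with Abcam133737, and the input held 10653749. Millipore07-601 and Abcam133638 gave the longer peak lists, with 57763 and 57891 peaks, against 40877 with Abcam133737 and 41296 with Abcam76013. Whole lung mixes epithelium with vessels, stroma and immune cells. All 6 alveolar type 2 (AT2) markers and all 6 alveolar type 1 (AT1) markers examined had a region called with all 4 antibodies within 10 kb, against 0 of 5 endothelial, 0 of 5 immune, 3 of 5 mesenchymal and 3 of 5 neuronal markers, where the share over all autosomal protein-coding genes was 60.4%. A low pileup from such a mixture may stand for occupancy in few cells or for weak occupancy in many, and these cannot be told apart.

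A Rab protein switches between a form bound to GTP, which sits on a membrane and recruits effectors such as tethers and motor proteins, and a form bound to GDP, which is drawn back into the cytosol. Exchange factors load GTP, GTPase-activating proteins end the active state, and a lipid anchor added by prenylation holds the protein on its membrane. In the lung, AT2 cells store surfactant in lamellar bodies, which are lysosome-related organelles, and release it by regulated exocytosis, while the epithelium as a whole relies on polarised delivery to its apical and basolateral surfaces.

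The sequences of a few Rab promoters that held a summit of all 4 antibodies are printed here. They come from RefSeq on GRCm38.p6 and run 5′ to 3′ on the strand of the gene. All but that of Rab17 stop at the outer edge of the annotated gene. Capitals mark matches to CACTNNAG, CTCAAG or CAAGTG, letters associated with NKX2-1 and related homeodomain factors, or to their reverse complements. The printed promoters other than Rab3a all hold such a match and do not stand for these windows in general. Rab11a and Rab33b, with summits nearer the start (-14 and -28), held none in the 250 bases before it and are not printed. The Rab3a promoter (chr8:70754453-70754702, plus strand, summit at position -109 from the start) is shown because it had the highest pileup among these windows, and it holds none of these letters. Rab3d (chr9:21918200-21918433, minus strand, summit at -140) holds CTCAAG on both strands. Rab5c (chr11:100738216-100738465, minus strand, summit at -61) holds CAAGTG on both strands. Rab11b (chr17:33760487-33760736, minus strand, summit at -60) holds CAAGTG once, close to its summit. For Rab17 (chr1:90967765-90967794, minus strand) a stretch of 30 bases around a match to CACTNNAG is given, in a window with its summit at -154. The Rab17 stretch and summit lie inside the annotated gene, before an inner start.
Rab3a: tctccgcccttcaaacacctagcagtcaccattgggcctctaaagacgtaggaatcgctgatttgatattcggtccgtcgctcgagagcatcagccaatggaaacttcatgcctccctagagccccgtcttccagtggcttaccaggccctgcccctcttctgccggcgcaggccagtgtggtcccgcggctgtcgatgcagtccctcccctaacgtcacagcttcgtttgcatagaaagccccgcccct
Rab3d: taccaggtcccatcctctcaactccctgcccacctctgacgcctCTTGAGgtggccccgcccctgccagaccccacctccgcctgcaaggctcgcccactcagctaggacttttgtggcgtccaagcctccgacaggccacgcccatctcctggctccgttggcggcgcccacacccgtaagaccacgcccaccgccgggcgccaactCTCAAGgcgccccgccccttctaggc
Rab5c: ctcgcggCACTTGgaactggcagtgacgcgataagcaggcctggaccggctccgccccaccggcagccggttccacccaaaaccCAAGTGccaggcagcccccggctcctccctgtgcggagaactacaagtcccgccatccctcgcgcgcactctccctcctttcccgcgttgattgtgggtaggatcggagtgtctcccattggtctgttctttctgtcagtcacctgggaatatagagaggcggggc
Rab11b: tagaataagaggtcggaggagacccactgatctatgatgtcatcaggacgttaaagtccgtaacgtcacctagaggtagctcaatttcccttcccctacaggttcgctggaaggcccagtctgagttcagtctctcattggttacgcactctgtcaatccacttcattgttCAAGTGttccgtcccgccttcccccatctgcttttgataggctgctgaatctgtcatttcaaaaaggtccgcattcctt
Rab17: ccgtgaaggtcCTTCAGTGcctgccaacag

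A region called with all 4 antibodies lay within 10 kb of 50 of the 55 Rab genes (90.9%), against the same 60.4% of all genes. At least 1 peak of any antibody was present at 54 Rab genes (98.2%), against 74.1% of all. Of the Rab genes, 22 (40%) had 3 or more regions called with all 4 antibodies, compared with 21.7% of all genes, while 13 had 2 such regions and 15 had 1. The pileup of the strongest region was less set apart: 6 Rab genes (10.9%) reached a mean of 100 tags, against 5.91% of all genes, and the median over the 54 Rab genes with a region was 47.1 tags beside 39.2 tags over all genes with a region. The median fold enrichment over the local background was 8.88 at the Rab genes and 7.67 at all genes.

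Over all genes the share with a region of all 4 antibodies rose with gene length, so the counts are also given by quartile of length. The median Rab gene spanned 24.8 kb and the median autosomal gene 17.5 kb. Within quartiles of gene length over all genes, a region of all 4 antibodies was present at 6 of 6 Rab genes in the shortest quartile (37% of all genes there), 9 of 10 in the next (61.3%), 21 of 25 in the next (67.7%) and 14 of 14 in the longest (75.4%). The share at Rab genes was above that of all genes in each quartile, on 6 to 25 Rab genes each, and did not rise steadily with length. A part of gene length in these counts was not tested. Without the flanks, counting only summits inside the gene, 33 Rab genes had a region of all 4 antibodies against 40.5% of all genes.

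**Figure D1:**
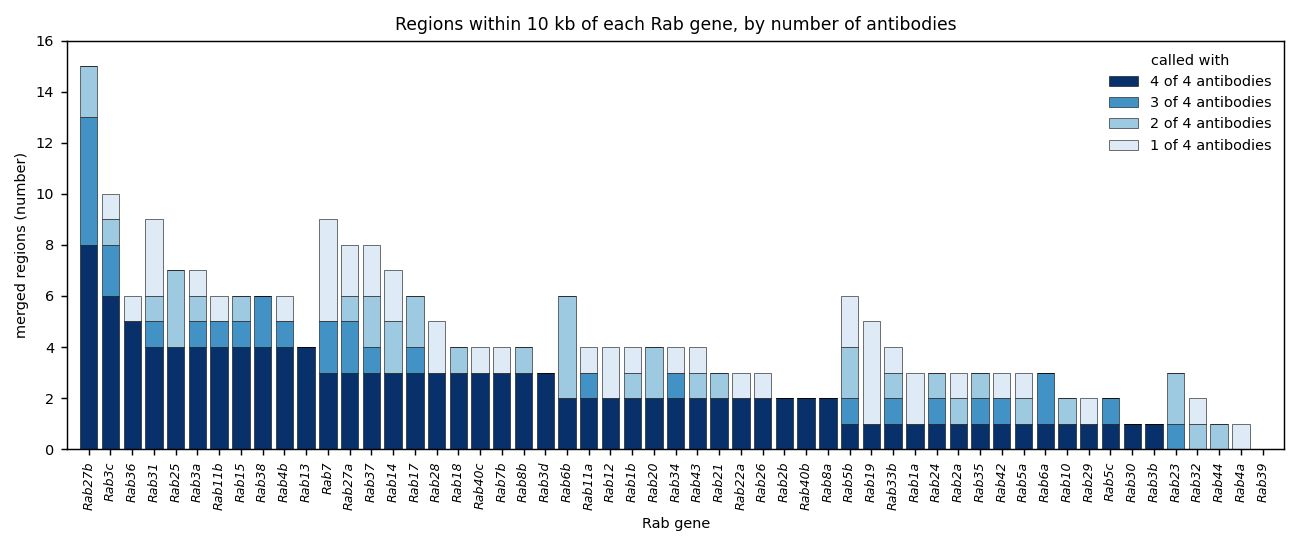
Number of merged NKX2-1 regions (y axis) within 10 kb of each of the 55 autosomal Rab genes (x axis), stacked by how many of the 4 antibodies gave a peak. Rab27b carried 15 regions, 8 of them called with all 4 antibodies, and Rab39 carried none.

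The 55 windows held 240 regions, of which 125 were called with all 4 antibodies, 31 with 3, 39 with 2 and 45 with 1. Regions of all 4 antibodies thus made up 52.1% at Rab genes and 46.3% among 53389 regions within 10 kb of any autosomal gene. Among the regions called with fewer antibodies, 25 had Millipore07-601 and Abcam133638 together, 24 had Abcam133638 alone and 17 had Millipore07-601 alone. Abcam133737 alone gave 2 and Abcam76013 alone gave 2. Regions of the longer lists that the shorter lists lacked were thus the most frequent kind of partial call.

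At the 125 regions of all 4 antibodies the median pileup was 32 tags with Abcam133737 and Abcam76013, 42 with Millipore07-601 and 44 with Abcam133638. Millipore07-601 gave the highest value at 75 regions and Abcam133638 at 52, ties counted for each, whereas the lowest value was that of Abcam133737 at 67 and of Abcam76013 at 58. In 94 regions both antibodies with long lists stood above both with short lists. The highest library exceeded the lowest by a median factor of 1.56, with a range of 1.07 to 2.70, and by more than 2 at 8 regions. The order of regions was alike between libraries, with Spearman's rho of 0.88 to 0.91 for the pairs of antibodies across these 125 regions and 0.86 to 0.88 across all 31606 such regions of the genome. These coefficients describe libraries that share the input and possibly the chromatin. Summits of the 4 libraries lay a median of 45 bp apart from first to last, and within 100 bp at 111 regions.

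**Figure D2:**
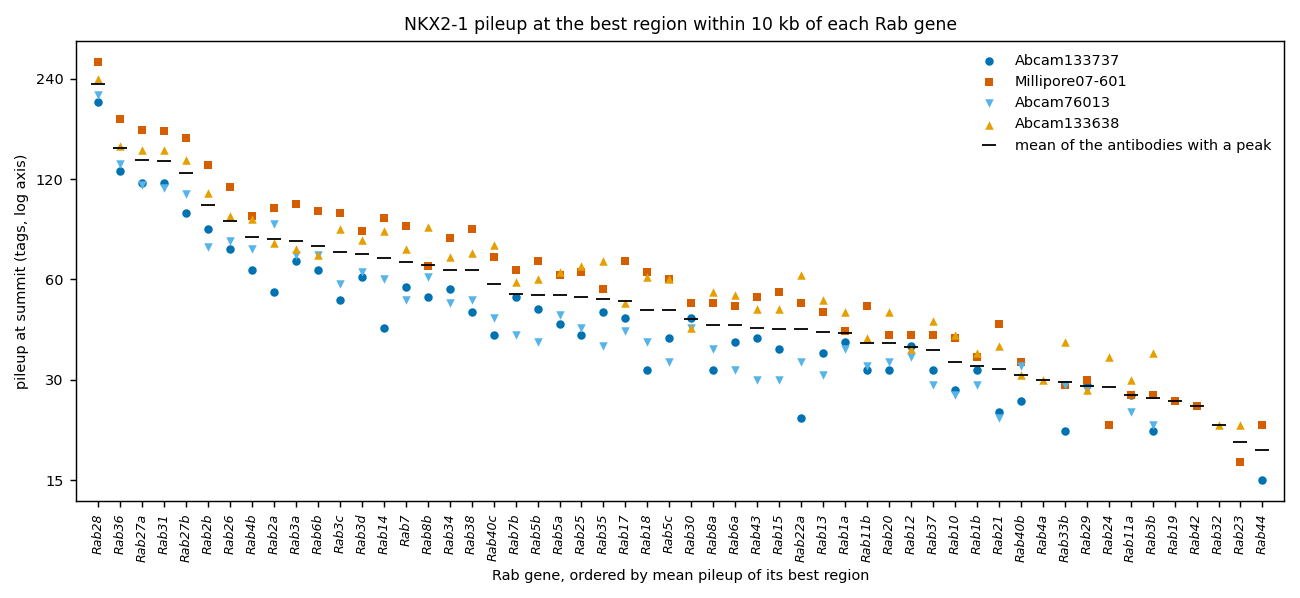
Pileup in tags (log axis) at the best region of each of the 54 Rab genes with a peak, 1 point for each antibody and a bar for the mean of the antibodies with a peak. Rab28 stands highest with 204 to 270 tags, and Rab32, Rab23 and Rab44 stand lowest with 15 to 22 tags from 1 or 2 antibodies.

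Rabs of regulated secretion and of lysosome-related organelles had the highest median among the role groups, at 68 tags for the best region beside 39.2 tags over all genes with a region, with a range of 18.5 to 137. Of these 12 genes, 10 had a region of all 4 antibodies (60.4% of all genes), and the group held 35 such regions. The Rab27 pair, which brings secretory granules and lysosome-related organelles to the plasma membrane, stood near the top of all Rab genes. Within Rab27a, 25.5 kb from the nearest annotated start (chr9:73089272-73090068), the pileup was 117 tags with Abcam133737, 169 with Millipore07-601, 115 with Abcam76013 and 147 with Abcam133638, with a mean of 137 and a mean fold enrichment of 28.9. All 4 libraries were above 100 tags there. Further inside Rab27a lay regions of 95.75 and 53 tags, the former with a fold of only 10.3. Its paralog Rab27b had 95, 159, 108 and 137 tags in the same order of antibodies at an intragenic region, a mean of 124.75 and a fold of 26.4. The best regions of Rab27a and Rab27b thus differed by a ratio of 1.10, less than the spread between the libraries at either. Rab27b carried the most regions of any Rab gene, 8 of all 4 antibodies among 15, and the next strongest had a mean of 76.25 tags.

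The Rab3 genes encode regulators of vesicle exocytosis, with Rab3d known from secretory granules of exocrine cells. Rab3a gave 68, 101, 71 and 74 tags (Abcam133737, Millipore07-601, Abcam76013, Abcam133638, the order kept from here on), a mean of 78.5, at 2.16 kb before its start, closer to Pde4c. A separate region at the Rab3a start reached 60, 87, 57 and 79 tags. Millipore07-601 was highest at both regions. Rab3c gave 52, 95, 58 and 85 tags with a fold of 11.7 at 2.97 kb outside the gene, and carried 6 regions of all 4 antibodies. The best region near Rab3d (chr9:21923851-21924473) had 61, 84, 63 and 79 tags, a mean of 71.75, but lay 5.92 kb before the start and inside Tmem205. At the Rab3d promoter printed earlier the libraries gave 39, 69, 52 and 61 tags, a mean of 55.25, which is the value that remains if only summits within 2 kb are kept. Rab3b was the low member of the family, with 21, 27, 22 and 36 tags at 8.88 kb before its start and no other region, so that Rab3a exceeded it by a ratio of 2.96.

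Rab38 and Rab32 are close paralogs that act together in the biogenesis of melanosomes and related organelles, and loss of Rab38 in rodents is known to alter lamellar bodies. Rab38 had 48, 85, 52 and 72 tags at an intragenic region (chr7:88432994-88433374), a mean of 64.25 and a fold of 13.7, and 4 regions of all 4 antibodies, the others at 57.5, 37.25 and 22.5 tags. Rab32 had no region of all 4 antibodies. Its strongest peak, 0.038 kb before the start, came from Abcam133638 alone with 22 tags and a fold of 4.42, and a region inside the gene had 15 tags with Millipore07-601 and 17 with Abcam133638. The best region of Rab38 exceeded that of Rab32 by a ratio of 2.92, and the lowest library at Rab38 was above the only library at the Rab32 peak.

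The remaining genes of this role differed widely. Rab26, which acts on secretory granules, gave 74, 114, 78 and 93 tags 0.958 kb outside the gene (chr17:24527707-24528389), where Traf7 was nearer at 0.158 kb. With each region given only to its nearest gene, the value of Rab26 fell from 89.75 to 26 tags. Rab37, also linked to granule release, reached 36.75 tags with 3 regions of all 4 antibodies, and Rab29, a partner of the kinase LRRK2, reached 28.75 tags with 1. At Rab44, known from mast cell granules, peaks were called with Abcam133737 (15 tags) and Millipore07-601 (22 tags) only, 8.65 kb outside the gene.

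**Figure D3:**
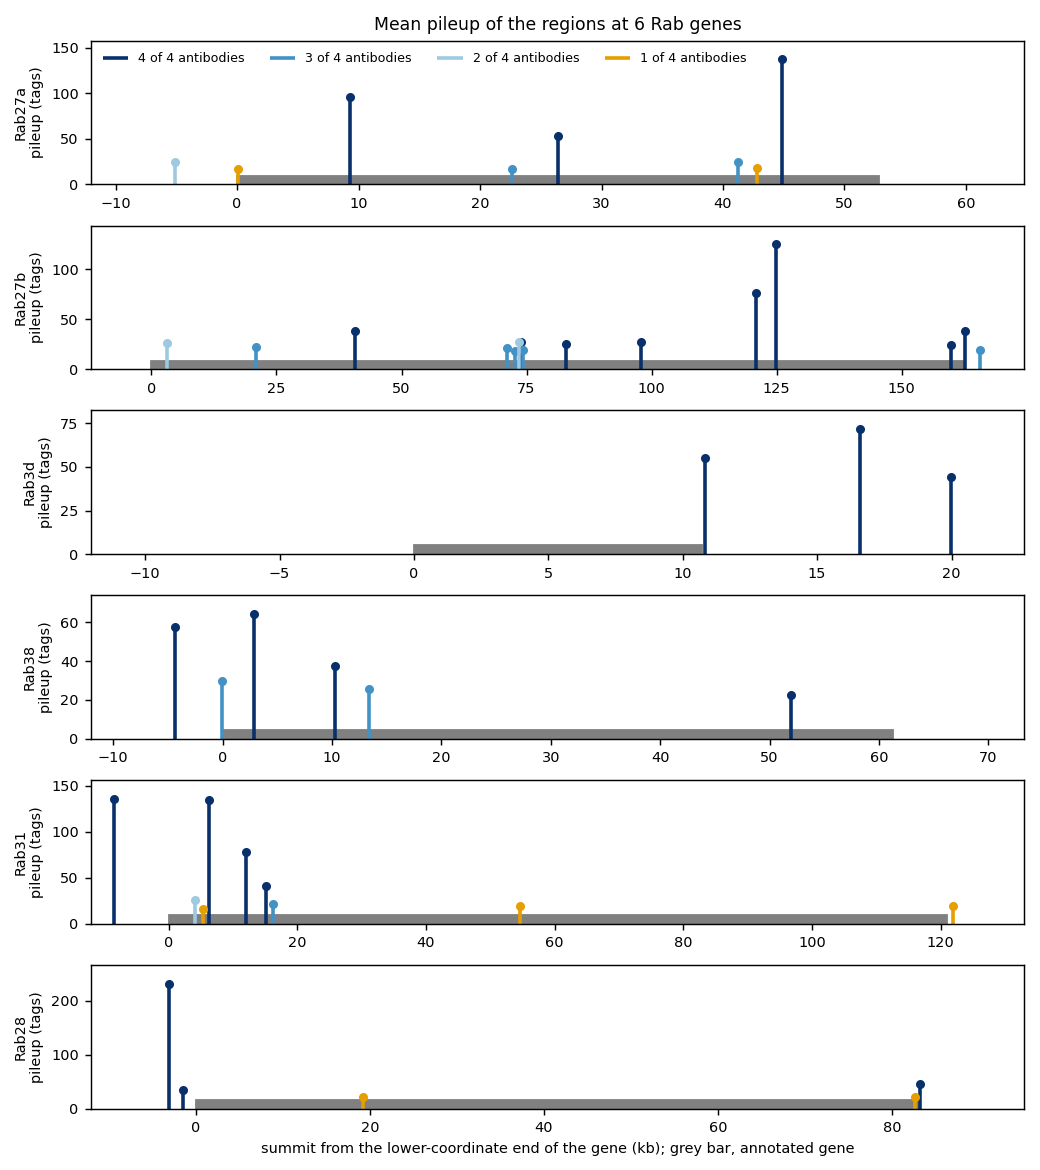
Mean pileup in tags (y axis) of each region against the distance of its summit from the lower-coordinate end of the gene in kb (x axis) for Rab27a, Rab27b, Rab3d, Rab38, Rab31 and Rab28, coloured by the number of antibodies, with the annotated gene as a grey bar. The strongest regions of Rab27a and Rab27b (137 and 124.75 tags) lie inside the genes, those of Rab3d, Rab31 and Rab28 (71.75, 136 and 232 tags) outside.

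The highest pileup at any Rab gene belonged to Rab28, a Rab linked to cilia and photoreceptors that falls in none of the trafficking groups. Its region (chr5:41621290-41622229) gave 204, 270, 214 and 240 tags, a mean of 232, and every library exceeded its own value at every other Rab gene. Only 4 of the 20665 autosomal genes had a region with a higher mean within their window. The region lay 3.04 kb beyond the end of the annotated gene and 86.25 kb from its start, with no other gene nearer. Its local background was 8.49 tags, worth 2 input reads, in contrast to about 1 read at most Rab regions, and its fold of 24.7 therefore ranked 5th among the Rab genes, behind Rab36, Rab27a, Rab31 and Rab27b. At the Rab28 start the mean was 44.75 tags, the value that remains when only summits within 2 kb are kept. The other ungrouped members were Rab40c (58.25 tags) and Rab40b (31 tags), which form ubiquitin ligases, and Rab42, whose best peak had 25 tags from Millipore07-601 alone although a region of all 4 antibodies with 24.25 tags lay 6.67 kb outside the gene.

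**Figure D4:**
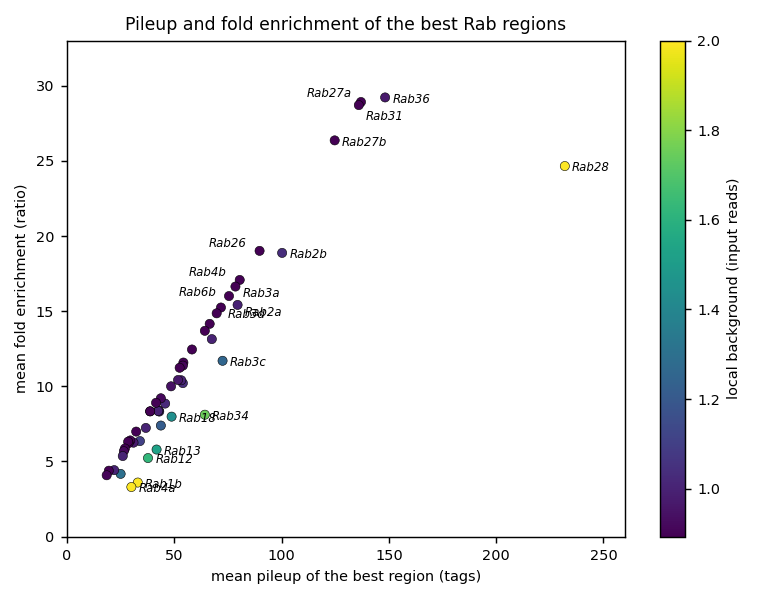
Mean fold enrichment (ratio, y axis) against mean pileup in tags (x axis) for the best region of each of the 54 Rab genes with a peak, coloured by the local background in input reads. Of these regions, 24 stood on the genome-wide background in every library with a peak. Rab28 (232 tags, fold 24.7), Rab1b (33 tags, fold 3.59) and Rab4a (30 tags, fold 3.30), each with 2 input reads, lie beneath the line of those points. Others with a raised background, such as Rab34 (64.25 tags, fold 8.11), Rab12, Rab13 and Rab18, lie beneath it as well.

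Early endosomal Rabs sort cargo just after uptake. Of these 10 genes, 9 had a region of all 4 antibodies (60.4% of all genes), with a median best pileup of 51.25 tags (39.2 tags over all genes) and a range of 30 to 136. Rab31, which carries cargo between the Golgi and endosomes, led the group with 117, 167, 113 and 147 tags, a mean of 136, but at a region 8.45 kb outside the gene and inside Txndc2 (chr17:65643018-65643905). A region of nearly equal height lay inside Rab31 itself, with 119, 153, 119 and 149 tags, a mean of 135, so the rank of Rab31 did not depend on the outer region. Its close relative Rab22a reached 42.5 tags, lower by a ratio of 3.2, and had the widest ratio between libraries among all 125 regions, 2.70, from 23 tags with Abcam133737 to 62 with Abcam133638.

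Rab4b, a Rab of fast recycling, gave 64, 93, 74 and 91 tags, a mean of 80.5, at 2.61 kb before its start, where Mia was nearer. If the region is left to Mia, the best value of Rab4b is 28.5 tags, at its own start. Rab4a had 1 peak, of Abcam133638, with 30 tags on a background of 2 input reads and a fold of 3.30. Rab14, which moves cargo between the trans-Golgi network and endosomes, had 43, 92, 60 and 84 tags at 8.41 kb outside the gene, inside Cntrl, and 50, 73, 50 and 71 tags (mean 61) inside the gene at 1.07 kb from its start. The Rab5 genes, which drive fusion of early endosomes, stood close together. Rab5a and Rab5b each had a mean of 54 tags and Rab5c 48.5, all within 1 kb of a start. The Rab5b region lay inside Pmel, and Rab5b had no region of all 4 antibodies when regions went to the nearest gene. Rab20 (38.75 tags) and Rab21 (32.25 tags) completed the group.

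Among Rabs of the endoplasmic reticulum and Golgi, 13 of 13 had a region of all 4 antibodies (60.4% of all genes), with 24 such regions in all, a median of 45.75 tags (39.2 tags over all genes) and a range of 26 to 148.25. Rab36, which is linked to the Golgi and to the placement of late endosomes, had 127, 182, 133 and 151 tags and a fold of 29.2, the highest fold of any Rab gene, at a region 3.76 kb outside the gene (chr10:75058292-75058706). Bcr lay nearer, at 2.05 kb, and the strongest region that remained when each region was given only to its nearest gene had 42 tags, inside Rab36, in place of 148.25. Rab2b, a Rab of traffic between the endoplasmic reticulum and the Golgi, had 85, 132, 75 and 109 tags, a mean of 100.25, at 0.082 kb from its start (chr14:52278989-52279642), in a stretch also covered by Tox4. Its paralog Rab2a had 55, 98, 88 and 77 tags inside the gene, a mean of 79.5. Here Abcam76013, usually among the low libraries, stood above Abcam133638.

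Rab6b and Rab6a act in retrograde traffic at the Golgi. Rab6b gave 64, 96, 71 and 71 tags 0.916 kb beyond its end and Rab6a 39, 50, 32 and 54 tags at its start, a ratio of the means of 1.73. The best region of Rab34, at 64.25 tags, straddled the edge of the window, with summits 9.74 to 10.5 kb outside the gene and inside Tlcd1. Counting only summits within the window, Rab34 kept 56.5 tags. When regions went to the nearest gene, Rab34, Rab3b, Rab24 and Rab42 had no region of all 4 antibodies. Rab1a and Rab1b, which are needed for export from the endoplasmic reticulum, had 41.5 and 33 tags near their starts, and Rab1b had the lowest fold of any Rab gene whose best region was called with all 4 antibodies, 3.59. Rab18, Rab30, Rab43 and Rab33b had 48.75, 45.75, 43 and 29.5 tags. At Rab19 the best peak, 26 tags, came from Millipore07-601 alone inside Slc37a3, and a region of all 4 antibodies with 21.5 tags sat at its start.

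Recycling and polarised Rabs, which carry proteins to the apical or basolateral surface, had a region of all 4 antibodies at 10 of 11 genes (60.4% of all genes), with a median of 42.75 tags, near the 39.2 tags over all genes, and a range of 19.5 to 66.5. Rab25, an epithelial relative of Rab11, had 41, 63, 43 and 66 tags at 4.53 kb before its start inside Lamtor2, and 28, 37, 30 and 47 tags (mean 35.5) at its own start. The latter is the value left when regions go to the nearest gene. Rab11b (38.75 tags) and Rab11a (27 tags), which run the recycling endosome, were lower than the 53.25 tags of Rab25 by ratios of up to 1.97, but Rab11b, with its region inside the gene, was above the 35.5 tags at the start of Rab25. Rab17, which acts in transcytosis across epithelia, had 46, 68, 42 and 51 tags inside the gene and 3 regions of all 4 antibodies in all. Rab8b, Rab35, Rab8a, Rab15, Rab13 and Rab10 had means of 66.5, 52.5, 43.75, 42.75, 41.75 and 34 tags, and the region counted for Rab8b lay 8.72 kb outside the gene, closer to Aph1c, and that for Rab35 5.90 kb outside and inside Bicdl1. Rab35 had no other region of all 4 antibodies, and none when regions went to the nearest gene or only summits within 2 kb were kept. Rab23, a regulator of Hedgehog signalling and cilia, had 3 regions but none with all 4 antibodies. At its start Millipore07-601 gave 17 tags and Abcam133638 gave 22.

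Late endosomal and autophagic Rabs had a region of all 4 antibodies at 4 of 5 genes (60.4% of all genes). Rab7, which brings late endosomes to lysosomes, led with 57, 87, 52 and 74 tags inside the gene, a mean of 67.5, ahead of Rab7b at 54.25 and Rab12 at 37.75. The best peak pair of Rab24, a Rab of autophagosomes, had 22 tags with Millipore07-601 and 35 with Abcam133638, inside Mxd3, and its region of all 4 antibodies had 24.25 tags. Rab39 was the only Rab gene without a peak, and the nearest one, from 1 antibody with 27 tags, lay 10.3 kb away.

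The limit of 10 kb decided a few values. Just inside it lay a region of all 4 antibodies near Rab3d at 9.26 kb (44.25 tags), the straddling region of Rab34, and peaks of 1 antibody at Rab19 (9.88 kb, 20 tags) and Rab3c (9.93 kb, 31 tags). Just outside lay peaks of 1 antibody at Rab25 (10.12 kb, 21 tags) and Rab15 (10.13 kb, 28 tags), and a region of all 4 antibodies at Rab14 (10.29 kb, 32.25 tags). Slightly further out, Rab12 had a region of all 4 antibodies with 85.75 tags at 10.6 kb and Rab1b a region with 54.25 tags at 10.8 kb, each above the best region counted for that gene.

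At Rab genes with a known start, best regions outside the gene had a higher median pileup than those at a start. Most of these outer regions lay inside or nearer another gene. Transcription starts were known for 44 Rab genes, of which 43 had a region. The best region was within 1 kb of a start at 20 of these (46.5%, against 33.5% of 12204 autosomal genes), further inside the gene at 7 (16.3%, against 30.3%) and outside it at 16 (37.2%, against 36.2%). Median pileups of these classes were 42.1, 38.75 and 68.1 tags at the Rab genes, and 34.5, 50.75 and 39.2 tags at all genes. In the outside class only Rab28, Rab3c, Rab6b and Rab42 were the nearest gene to their best region. At the rest another gene held the region or was nearer, so the 68.1 tags cannot be assigned to the Rab genes. The 11 Rab genes without a known start are not in these classes. Of these, Rab27b, Rab2a, Rab38, Rab7b, Rab18 and Rab37 had their best region inside the gene (124.75, 79.5, 64.25, 54.25, 48.75 and 36.75 tags). Those of Rab36, Rab26, Rab30 and Rab44 lay outside, and that of Rab4a at the gene's edge. The lower share and median further inside the gene thus hold for genes with a known start only. A region of all 4 antibodies, best or not, lay within 1 kb of a start at 30 of 44 Rab genes (68.2%) and at 36.2% of 16457 autosomal genes. Over all 54 Rab genes with a peak, another gene held the best region or was nearer to it at 16, while the Rab gene was nearest, or tied, at 38.

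**Figure D5:**
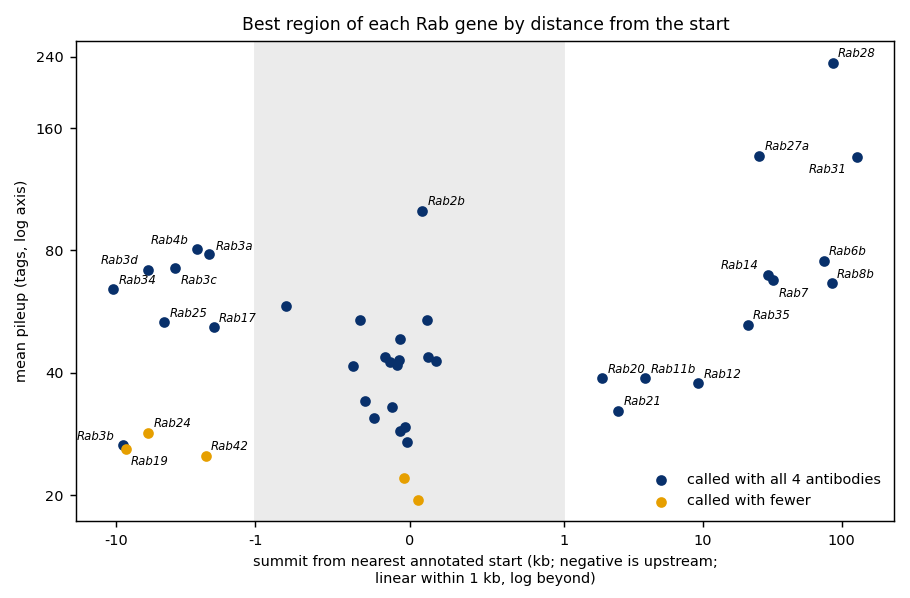
Mean pileup in tags (log axis) of the best region against the distance of its summit from the nearest annotated start in kb (linear within 1 kb, log beyond) for the 43 Rab genes with a known start and a region. Within the grey band of 1 kb only Rab2b reaches 100 tags, whereas Rab28, Rab27a and Rab31 exceed it far downstream of their starts.

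The promoter windows of RefSeq, 250 bases before to 50 after a start, were searched on both strands for letters associated with NKX2-1 and related factors (CACTNNAG, CTCAAG and CAAGTG), with AP-1 (TGANTCA) and with TEAD factors (GGAATG). These motifs can overlap, since a CACTNNAG whose free bases are CA contains CTCAAG, and a CTCAAG followed by TG contains CAAGTG. There were 56 windows from 44 Rab genes and 20085 windows from all autosomal genes. CTCAAG was present in 12 Rab windows (21.4%, against 15.0% of all), CAAGTG in 11 (19.6%, against 12.9%), CACTNNAG in 6 (10.7%, against 14.9%), TGANTCA in 2 (3.57%, against 7.06%) and GGAATG in 7 (12.5%, against 13.4%). CTCAAG and CAAGTG were thus the motifs found in a larger share of Rab windows than of all windows. Of the 20 Rab windows, from 19 genes, that held the summit of a region of all 4 antibodies, 3 held CTCAAG, 3 CAAGTG, 2 GGAATG, 1 CACTNNAG and 0 TGANTCA. The shares over all windows, in the same order, were 15.0%, 12.9%, 13.4%, 14.9% and 7.06%. In these 20 windows CTCAAG and CAAGTG were thus near their share of all windows, and CACTNNAG was below it. Rab3d, Rab5c, Rab11b and Rab17, printed earlier, are among them, while the Rab3a window with 70.75 tags held none of the 3 homeodomain motifs. A match describes letters in a window and not a binding site, and the sequence under the intragenic summits of Rab27a, Rab27b and Rab38 was not analysed here.

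The genes that turn Rabs on and off or act on their behalf were counted in the same way. Of 115 autosomal genes for regulators and effectors, 104 (90.4%) had a region of all 4 antibodies, against 60.4% of all genes. Their median best pileup was 48.5 tags, beside 47.1 tags at the Rab genes and 39.2 tags at all genes. These genes were not split by length, with which the share over all genes rose, so a part of gene length was not tested. Exchange factors had 31 of 34, and the highest were Sbf2 (140, 190, 140 and 145 tags), Dennd5a (131, 196, 119 and 157) and Rab3il1 (104, 151, 131 and 156). Rab3il1 loads GTP onto Rab8. GTPase-activating proteins had 32 of 33, led by Rabgap1l, Tbc1d8 and Rab3gap2 with means of 137.5, 133.75 and 125 tags, the last a subunit of the complex that acts on Rab3. Effectors had 38 of 44. The strongest was Myo5c, a motor of secretory granules in epithelia, with 131, 190, 137 and 172 tags, followed by Optn, which binds Rab8, with 119, 176, 139 and 154, and by Exph5, an effector of Rab27, with 113, 155, 139 and 154. Effectors without a region of all 4 antibodies were Sytl1, Rims1, Rph3a, Eea1, Appl1 and Exoc6. The prenylation and recycling factors were lower, with 3 of 4 genes and means of 58.25 tags at Rabggta, 44.25 at Gdi2 and 24.75 at Chml.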

How the data were processed

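Peak tables of the 4 NKX2-1 antibody libraries were used. The authors ran MACS 2.1.2, per the file headers, for each antibody against the same input at a q cutoff of 0.05. Duplicates were reduced to 1 tag per position, and the input was scaled to the larger library, so that 1 input read counted as 4.04 to 4.37 tags. The tools listed per the submitters' processing notes are Bowtie, deepTools, FastQC, MACS2, SAMtools and Trimmomatic, with the mm10 build, and other versions were not given in the sources used here. Per the file headers, each peak has a summit, a pileup signal in tags, a fold enrichment, the ratio to local background, and −log10 of its p-value and q-value. The signal and fold are the authors' values and serve here to describe and rank regions.

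Peaks overlapping by at least 1 bp were merged, and a region counted for a gene if the summit of at least 1 of its peaks lay inside the gene or within 10 kb. The mean pileup is over the antibodies with a peak, each with its highest value in the region, and "best" is the region with the highest mean. The local background was recovered as pileup plus 1 tag, divided by fold, less 1 tag. Genes, promoters and sequences are from RefSeq tables for GRCm38.p6. Starts and strand were known for 44 of 55 Rab genes. Exons and introns were not analysed here. In full were named the 12 Rab genes of highest mean pileup, any without a peak, those at the window's edge, and Rab3d, Rab27a, Rab32, Rab38, Rab14, Rab17 and Rab25, plus the 3 highest genes of each regulator list. Secondary regions and other Rab genes were described after their values were seen. Members, roles and lists were chosen with earlier results of these data known. Python 3.11.15, pandas 2.3.3, numpy 2.4.6 and matplotlib 3.10.9 were used, and the counting was tested on simulated peaks. Alternatives were stricter q and fold limits, the 10000 strongest peaks, other windows and overlaps, the nearest gene and leaving out each antibody.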

Additional observations from a re-analysis of the deposited data

How the results depend on the processing

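No paired analysis was possible because each antibody has 1 library, so no antibody has a replicate to pair with those of another. With the 10000 peaks of highest fold in each list, a region of all 4 antibodies remained at 24 Rab genes, 47 regulators and effectors and 4756 autosomal genes (23%). Any peak remained at 31 Rab genes, against 36.3% of all genes. With summits inside the gene only, 33 Rab genes had a region of all 4, against 40.5% of all genes. Ranked by fold, the highest value was 29.2 (Rab36, a ratio and no longer tags), and within 2 kb it was 137 tags (Rab27a). Leaving out each antibody gave 50 to 51 Rab genes with a region of all antibodies left, 53 to 54 with any peak, 104 to 108 regulators and effectors, 12519 to 13077 genes, a highest mean pileup of 219.333 to 241.333 tags and 19 to 21 best regions within 1 kb of a start. The same 5 genes led in each of these, with Rab31 above Rab27a without Millipore07-601. Limits of −log10 q of 5 and fold of 5 left 48 and 39 Rab genes (55.7% and 44.7% of all), windows of 2 and 50 kb 46 and 52 (51.6% and 76.4%), and the nearest gene alone 44 (51.2%). Of 180 values of 18 named Rab genes, 149 did not move or moved by less than the standard deviation between libraries. Of the other 31, 18 changed unit to a fold. Most of the 149 could hardly have moved, so the count is no measure of stability. Leaving out 1 of 4 libraries cannot shift their mean by a full standard deviation, and choosing peaks by their own summit changed none of the 18 genes. Choosing peaks by their own summit, added after seeing the data, left 50 Rab genes. Peaks of about 15 tags were the weakest at these genes, so a missing call means not detected at this depth, not absent.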

Other observations

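Other small GTPases, chosen by symbol after values were seen, gave mixed counts in the same windows. The Arf genes, which act in coat formation, had a region of all 4 antibodies at 6 of 6 members with a median best pileup of 54.9 tags. The Arl genes had 14 of 19 (73.7%), with a median of 40 tags. Arl15 led among these with 109, 154, 85 and 115 tags (Abcam133737, Millipore07-601, Abcam76013, Abcam133638). The difference between the Arf and Arl genes was not tested.

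The Rab genes on chromosome X, outside the autosomal group, differed among themselves. Rab33a had a region of all 4 antibodies 2.13 kb outside the gene with 91, 142, 104 and 103 tags, a mean of 110 and a fold of 23.2. Rab9 was called with 3 antibodies at most (24.7 tags), and Rab39b and Rab9b had no peak. On this chromosome 207 of 966 protein-coding genes (21.4%) had a region of all 4 antibodies.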
